A study of Arabidopsis thaliana with 18 samples.

Results

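WRKY6 (AT1G62300), ABR1 (AT5G64750, ABA REPRESSOR1) and AT1G71520 are 3 transcription factor genes of Arabidopsis thaliana, out of 16548 genes measured. They were chosen by their measured H2O2 response in these same arrays, and that response sets H2O2 arrays against untreated arrays. Every difference that uses either kind of array is therefore given for them as a description, with no test. The means of the genotypes compared with BA use neither and are tested. The spread in that test is still estimated from all 18 arrays, those of the choice included. Each is represented by a single array feature. The RefSeq gene table gives AT1G71520 no symbol, and its place in the AP2/ERF family is background knowledge.

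Seedlings 10 days old of 3 genotypes were measured on 18 arrays, 2 for each of 9 groups. The genotypes were CRF6oe, named as an overexpressor of CYTOKININ RESPONSE FACTOR 6 (CRF6, itself an AP2/ERF factor), a crf6 mutant, and the wild type (WT, Col-0). Seedlings of each were exposed to 20 mM H2O2, to 2 µM of the cytokinin benzyl adenine (BA), or left untreated. The labels give 6 h for the treatments. All solutions, those of the untreated seedlings included, were 3 mM MES buffer with 0.2% DMSO. A float of 1 h is given for the samples of every group, untreated ones included. The labels name no promoter for CRF6oe, no allele for crf6 and no number of lines, and they give no harvest time for the untreated seedlings. They do not say whether paired samples of a group were grown apart, so the p-values cover only the spread among these samples, and part or all of it may be technical.

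WRKY proteins bind W-box elements through a zinc-finger domain and act in defence, senescence and nutrient responses. AP2/ERF proteins carry the AP2 DNA-binding domain and include the ERF branch, which reads GCC-box elements, and the DREB branch, which reads dehydration-responsive elements. H2O2 is both a damaging oxidant and a signal in plant stress, and cytokinins are hormones that act through a phosphorelay in which CRF genes are among the downstream factors.

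Across genes, the 6 CRF6oe arrays correlated with the other arrays at r = 0.917 to 0.947, lower than the 0.948 to 0.991 found within the WT and crf6 set. As no batch is given, the CRF6oe genotype and its set of arrays cannot be told apart. No analysed feature was paired with CRF6, so the genotype labels were not checked on it. Of the seedlings' tissue markers, 1 of 12 shoot genes and 3 of 12 root genes were measured. The shoot gene LHB1B2, a light-harvesting antenna protein, ran from 10.2 to 12.2 on the log2 scale over all arrays, and the root gene PYK10, a beta-glucosidase, from 10.3 to 12.7. The root-hair expansins EXPA7 and EXPA18 ran from 3.15 to 4.98. All levels are deposited log2 values, and no level of one feature is set against that of another.

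WRKY6, a group IIb WRKY factor linked to senescence and to phosphate and defence responses, separated its H2O2 arrays from its untreated arrays in crf6 and WT only. In CRF6oe its log2 level was 9.57 and 10.12 with H2O2, against 9.95 and 9.49 untreated. In crf6 it was 10.31 and 10.07 with H2O2, against 8.90 and 8.84 untreated. In WT it was 11.73 and 10.28 with H2O2, against 9.72 and 9.29 untreated. The CRF6oe arrays of both conditions interleaved, while every H2O2 array of crf6 and WT was the higher. The mean difference (H2O2 minus untreated, log2, SE 0.36) was 0.12 in CRF6oe, 1.33 in crf6 (2.51-fold) and 1.50 in WT (2.82-fold). One array sets the size of the WT value: without WT H2O2 replicate 1 it was 0.77, and without replicate 2 it was 2.22. The 9 group means ran from 11.00 in WT with H2O2 down to 8.87 in untreated crf6, and in that order the arrays of neighbouring groups overlapped in 8 of 8 pairs. Such pairs come from sorting the same means, and the share over all genes was not computed. Nothing is read from these counts of pairs, here or for ABR1 and AT1G71520 below. The CRF6oe means with H2O2, with BA and untreated were 9.84, 9.77 and 9.72, next to each other in the order.

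ABR1 encodes an ERF factor known as a repressor of abscisic acid responses. In CRF6oe its log2 level was 8.42 and 8.05 with H2O2, against 8.23 and 6.83 untreated. In crf6 it was 7.38 and 7.52 with H2O2, against 5.26 and 4.70 untreated. In WT it was 8.65 and 7.87 with H2O2, against 6.87 and 6.33 untreated. As with WRKY6, the H2O2 arrays were all higher in crf6 and in WT, while in CRF6oe the first untreated array lay between the H2O2 arrays. The mean difference (H2O2 minus untreated, log2, SE 0.48) was 0.71 in CRF6oe (1.63-fold), 2.47 in crf6 (5.54-fold) and 1.67 in WT (3.18-fold). The CRF6oe value was 1.41 without CRF6oe untreated replicate 1 and 0.0046 without untreated replicate 2. The order of group means began with WT with H2O2 at 8.26 and CRF6oe with H2O2 at 8.24 and ended with untreated crf6 at 4.98. Of the 8 neighbouring pairs 2 did not overlap, namely crf6 with H2O2 above untreated WT, and crf6 with BA above untreated crf6.

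AT1G71520, a DREB-type AP2/ERF gene, had the widest span of the 3 genes over the 9 groups. In CRF6oe its log2 level was 6.29 and 7.24 with H2O2, against 6.34 and 5.03 untreated. In crf6 it was 5.97 and 5.77 with H2O2, against 3.79 and 3.69 untreated. In WT it was 8.02 and 6.82 with H2O2, against 3.81 and 3.94 untreated. Again the arrays separated in crf6 and in WT and overlapped in CRF6oe, where 1 untreated array stood near the lower H2O2 array. The mean difference (H2O2 minus untreated, log2, SE 0.51) was 1.08 in CRF6oe (2.11-fold), 2.13 in crf6 (4.37-fold) and 3.54 in WT (11.6-fold). In WT 0.0544% of genes had a higher H2O2 difference. The gene was chosen on this response, so nothing is read from that rank. The CRF6oe value was 1.73 without CRF6oe untreated replicate 1 and 0.43 without untreated replicate 2. Group means ran from 7.42 in WT with H2O2 to 3.41 in WT with BA, and 3 of 8 neighbouring pairs did not overlap. These were CRF6oe with H2O2 above crf6 with H2O2, CRF6oe with BA above untreated WT, and untreated WT above untreated crf6.

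**Figure D1:**
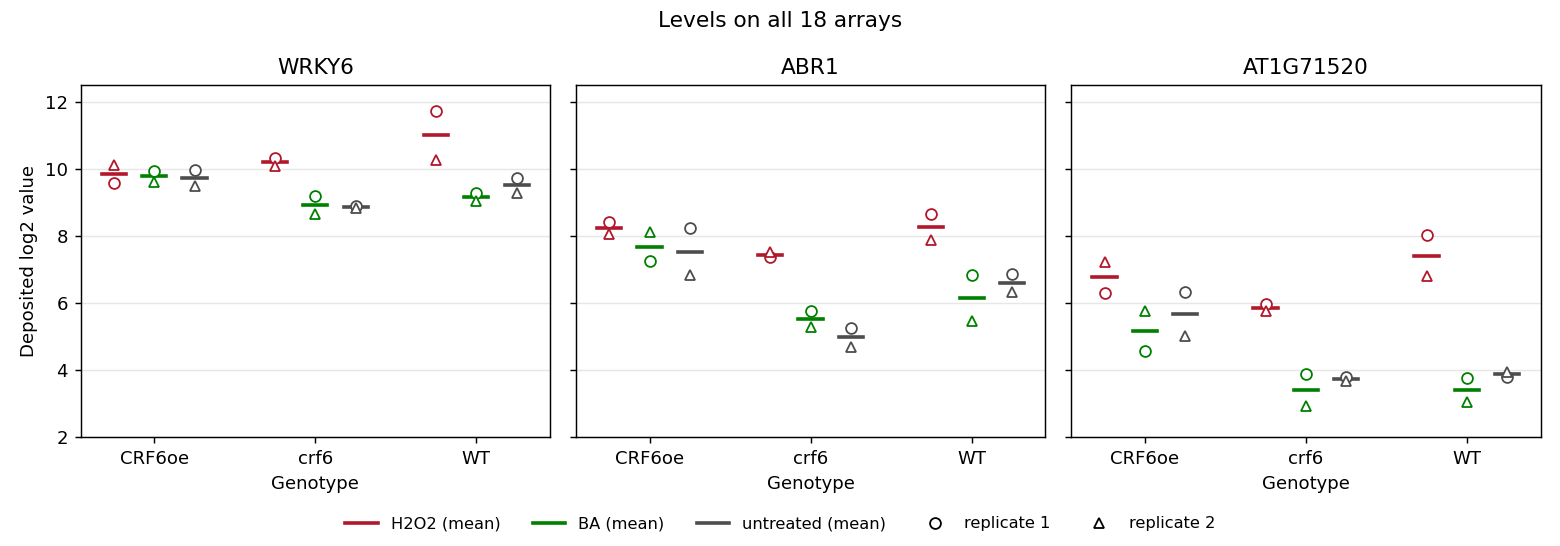
Deposited log2 levels of WRKY6, ABR1 and AT1G71520 on all 18 arrays by genotype and treatment; open circles and triangles are replicates 1 and 2, and bars are group means. For each gene the H2O2 arrays stand clear of the untreated arrays in crf6 and WT and overlap them in CRF6oe.

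All 3 genes thus had both H2O2 arrays above both untreated arrays in WT, where 17.5% of all genes did, all 3 did in crf6, where 21.1% did, and 0 of 3 did in CRF6oe, where 25.9% did. Because the genes were chosen on this response, nothing is read from these counts. The H2O2 response in CRF6oe minus that in WT (log2) was -1.37 ± 0.51 for WRKY6, -0.96 ± 0.68 for ABR1 and -2.46 ± 0.72 for AT1G71520 (SE). The response in crf6 minus that in WT was -0.17 ± 0.51 for WRKY6, 0.80 ± 0.68 for ABR1 and -1.41 ± 0.72 for AT1G71520. The WRKY6 value in crf6 turned to 0.55 without WT H2O2 replicate 1. For CRF6oe, ABR1 ranged from -1.66 to -0.26 with either untreated CRF6oe array left out. The CRF6oe and crf6 differences share the WT arrays. In bulk seedlings, fewer cells of a type and less RNA per cell cannot be told apart. The mean log2 level of the 3 root markers was also lower with H2O2. It was 6.08 to 6.16 in WT with H2O2 against 6.81 to 6.92 untreated, and 6.18 to 6.20 in crf6 with H2O2 against 7.01 to 7.08 untreated. In CRF6oe it was 6.35 to 6.41 with H2O2 against 6.56 to 7.002 untreated. Of these genes PYK10 fell by 0.93 in crf6 (limma adjusted p = 0.0403), a call lost without any 1 of the 4 arrays compared (0.145 to 0.313), with those arrays fitted alone (0.0658) or after quantile normalization (0.0799). In WT and in CRF6oe 0 of the 3 root markers were called with H2O2. The shoot marker LHB1B2 was at 0.02 in WT, -0.12 in crf6 and -0.34 in CRF6oe, and was called in none of them. The part of these markers in the values of the 3 genes was not tested.

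The nearest relatives of the 3 genes were not used to choose them, and their H2O2 responses were tested with limma. The arrays measured 2 of 7 group IIb WRKY relatives, 2 of 7 ERF group X relatives and 8 of 10 DREB relatives. Of other family members they measured 4 of 64 WRKY and 9 of 63 AP2/ERF genes. Of 4 reported WRKY6 targets only WRKY42 was measured. In WT, 1 of the 2 measured group X relatives of ABR1 rose. This was AT2G33710, by 1.95 ± 0.38 (log2, SE, adjusted p = 0.00965), with a mean of 6.36 with H2O2 against 4.41 untreated. The other, AT5G61890, was at -0.02 ± 0.42 (limma adjusted p = 0.992). Among 8 measured DREB relatives of AT1G71520, 2 rose and 0 fell: AT1G22810 by 2.80 ± 0.71 (adjusted p = 0.0491, and 0.0562 with a replicate block within each genotype) and AT1G33760 by 1.30 ± 0.25 (adjusted p = 0.00823). The median of these 8 genes was 0.45, against -0.02 over all genes, and 1.5% of all genes rose in WT. The group IIb relatives of WRKY6 did not pass the test: WRKY42, a regulator of phosphate homeostasis, was at 0.55 ± 0.33 and WRKY47 at -0.57 ± 0.29 (limma adjusted p = 0.589 and 0.480). Of the 4 other WRKY genes measured, WRKY29, which acts downstream of flagellin perception, fell by 1.15 in WT (limma adjusted p = 0.00585) and 0 rose. Of the 9 other AP2/ERF genes, DREB2C rose by 1.50 (limma adjusted p = 0.00110) and 0 fell. The zinc-finger regulator STZ rose by 2.06. The AT1G22810 call was lost without any 1 of the 4 arrays compared, where its rise was 2.32 to 3.27. It was also lost after quantile normalization (limma adjusted p = 0.0689) or median centring of the arrays (0.0546). An intensity trend with a robust prior (0.111) and a test of all features (0.105) lost this call too. That of AT2G33710 was lost without WT H2O2 replicate 1, where its rise was 1.15 (adjusted p = 0.0809), or without WT untreated replicate 2 (1.72, adjusted p = 0.126). That of AT1G33760 was lost without WT untreated replicate 1 (1.13, adjusted p = 0.0873), and that of WRKY29 without WT untreated replicate 2 or WT H2O2 replicate 1 (adjusted p = 0.0535 and 0.0609). With the 4 arrays of this comparison fitted alone, the calls of AT2G33710, AT1G33760, WRKY29, DREB2C and STZ were all lost (adjusted p = 0.053 to 0.185).

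In crf6, DREB2C rose by 1.86 and STZ by 2.40 with H2O2, and WRKY29 fell by 0.95 (limma adjusted p = 3.55e-04, 0.00114 and 0.0277). None of the 2 group X, 8 DREB or 2 group IIb relatives passed the limma test there, where 0.864% of all genes rose. AT2G33710 was at 0.99 ± 0.38, AT1G22810 at 2.39 ± 0.71 and AT1G33760 at 0.63 ± 0.25 (adjusted p = 0.357, 0.138 and 0.385). In CRF6oe, where 1.41% of all genes rose, DREB2C rose by 1.09 (limma adjusted p = 0.0177) and no other gene of these 5 WRKY and AP2/ERF lists passed. STZ did not pass there either, at 0.68. AT2G33710 was at 0.96 ± 0.38 and AT1G22810 at 0.57 ± 0.71 in CRF6oe (adjusted p = 0.184 and 0.713). The other group X relative, AT5G61890, was at -0.04 ± 0.42 in crf6 and at -0.90 ± 0.42 in CRF6oe, neither passing. The differences between genotypes were tested with limma as interactions, and none passed for these relatives. Among all 16548 genes, limma called 95 for the CRF6oe minus WT response and 0 for the crf6 minus WT response. The CRF6oe minus WT response was -0.98 ± 0.53 for AT2G33710, -2.22 ± 1.01 for AT1G22810 and -0.95 ± 0.35 for AT1G33760 (limma adjusted p = 0.452, 0.356 and 0.257). The WRKY29 call in crf6 was lost without any 1 of the 4 arrays compared (adjusted p = 0.0586 to 0.294). The DREB2C call in CRF6oe was likewise lost without any 1 of its 4 (adjusted p = 0.0613 to 0.0866).

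**Figure D2:**
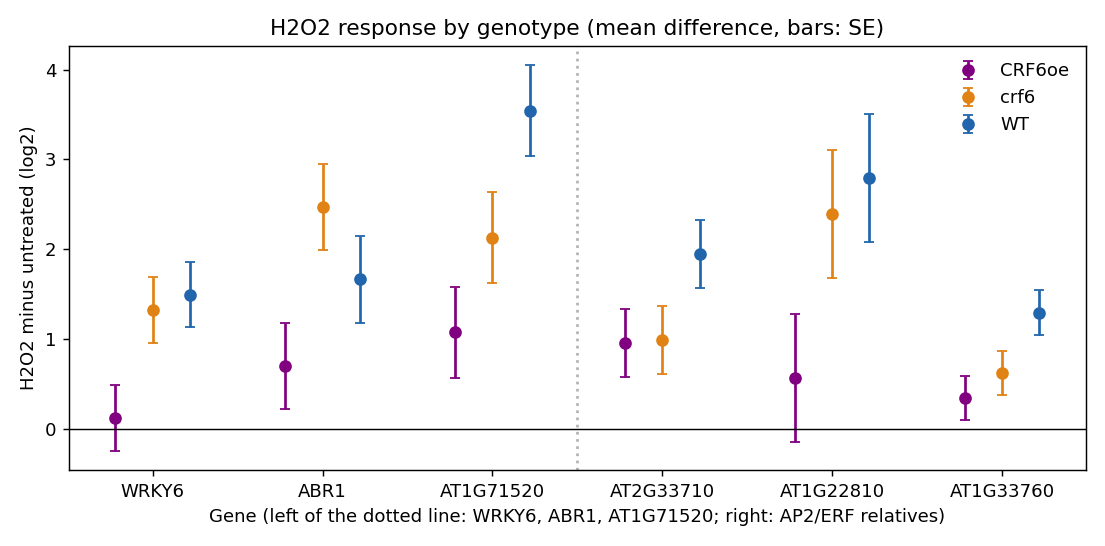
H2O2 minus untreated (log2) in CRF6oe, crf6 and WT for the 3 genes and for the AP2/ERF relatives that passed the test in WT; points are differences of group means and bars are SE. AT1G71520 in WT is highest at 3.54. The genes shown were picked for their H2O2 rise, the relatives for that in WT. A lower value in another genotype can follow from that choice. Each gene has its lowest value in CRF6oe, for AT2G33710 at 0.96 against 0.99 in crf6 (SE 0.38).

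BA addressed a question apart from H2O2, namely whether the cytokinin moved these genes in each genotype. The untreated arrays used here are those of the H2O2 response on which the genes were chosen, so the values are a description. For WRKY6 the log2 levels with BA against untreated were 9.94 and 9.61 against 9.95 and 9.49 in CRF6oe, 9.18 and 8.66 against 8.90 and 8.84 in crf6, and 9.29 and 9.05 against 9.72 and 9.29 in WT. For ABR1 they were 7.26 and 8.12 against 8.23 and 6.83 in CRF6oe, 5.77 and 5.30 against 5.26 and 4.70 in crf6, and 6.83 and 5.47 against 6.87 and 6.33 in WT. For AT1G71520 they were 4.56 and 5.76 against 6.34 and 5.03 in CRF6oe, 3.90 and 2.95 against 3.79 and 3.69 in crf6, and 3.77 and 3.04 against 3.81 and 3.94 in WT. The arrays overlapped in 7 of these 9 comparisons, the exceptions being ABR1 in crf6, where both BA arrays were higher, and AT1G71520 in WT, where both were lower. The share of all genes with such an overlap was not computed, so nothing is read from this count. In CRF6oe the difference (BA minus untreated, log2, SE) was 0.05 ± 0.36 for WRKY6, 0.16 ± 0.48 for ABR1 and -0.52 ± 0.51 for AT1G71520. In crf6 it was 0.05, 0.56 and -0.32 for the same genes, and in WT -0.33, -0.45 and -0.47, with the same SEs. Single arrays turned some of these signs. ABR1 was at -0.54 in CRF6oe without CRF6oe untreated replicate 2 and at 0.24 in WT without WT BA replicate 2, and AT1G71520 was at 0.13 in CRF6oe without CRF6oe untreated replicate 1. The BA response minus that of WT was 0.39 (WRKY6), 0.60 (ABR1) and -0.05 (AT1G71520) in CRF6oe, and 0.38, 1.00 and 0.15 in crf6. In CRF6oe that of ABR1 ran from -0.10 to 1.30 and that of AT1G71520 from -0.70 to 0.60 with 1 array left out. In crf6 that of ABR1 ran from 0.32 to 1.69, its extremes without either WT BA array. Tested with limma, 0 of the 12 measured group IIb, group X and DREB relatives were called with BA in any genotype, against 0.212% of all genes in CRF6oe, 0.236% in crf6 and 0.163% in WT. Limma called 0 genes for either BA interaction, which is 0% of those tested. Out of 16548 genes, 760 for CRF6oe and 283 for crf6 had an unadjusted p under 0.05. A share of 0.05 of all genes would do so with no difference at all, so nothing is read from these counts.

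The crf6 mutant was set against WT to ask whether loss of CRF6 moved the 3 genes. With BA, where the comparison could be tested, none passed (limma adjusted p = 1.00 each). ABR1 was at 5.77 and 5.30 in crf6 against 6.83 and 5.47 in WT, a difference of -0.61 ± 0.48 (log2, SE, 95% interval -1.64 to 0.41). WRKY6 was at 9.18 and 8.66 in crf6 against 9.29 and 9.05 in WT, a difference of -0.25 ± 0.36 (-1.03 to 0.52). AT1G71520 was at 3.90 and 2.95 in crf6 against 3.77 and 3.04 in WT, a difference of 0.02 ± 0.51 (-1.07 to 1.10). The arrays overlapped in each case. Across all genes limma called 0 with BA (0% of those tested), with 746 at an unadjusted p under 0.05. Untreated, as a description, ABR1 differed most: its arrays were at 5.26 and 4.70 in crf6 against 6.87 and 6.33 in WT, a difference of -1.62 ± 0.48. This is a level in crf6 of 0.326 times that in WT. WRKY6 was at 8.90 and 8.84 in crf6 against 9.72 and 9.29 in WT, a difference of -0.64 ± 0.36, and AT1G71520 at 3.79 and 3.69 in crf6 against 3.81 and 3.94 in WT, a difference of -0.14 ± 0.51. Both crf6 arrays lay below both WT arrays for all 3 genes, as for 19.4% of all genes. Low untreated levels in crf6 also enter the H2O2 response on which the genes were chosen. Untreated, limma called 0 of all genes (0%), with 855 at an unadjusted p under 0.05. Nothing is read from this count or from that with BA. With no difference at all, a share of 0.05 of the 16548 genes would fall under that threshold. With H2O2, as a description, the differences were -0.81 for WRKY6, -0.81 for ABR1 and -1.55 for AT1G71520. The crf6 arrays were lower for ABR1 and AT1G71520 and overlapped for WRKY6, whose difference was -0.08 without WT H2O2 replicate 1. The share of all genes with crf6 arrays lower under H2O2 was not computed, so nothing is read from this separation.

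CRF6oe was set against WT to ask the same of the overexpressor. With BA, where the comparison could be tested, AT1G71520 and ABR1 were higher in CRF6oe. AT1G71520 was at 4.56 and 5.76 in CRF6oe against 3.77 and 3.04 in WT, and rose by 1.75 ± 0.51 (log2, SE, 3.37-fold, limma adjusted p = 0.0195). ABR1 was at 7.26 and 8.12 in CRF6oe against 6.83 and 5.47 in WT, and rose by 1.54 ± 0.48 (2.91-fold, adjusted p = 0.0289). WRKY6 was at 9.94 and 9.61 in CRF6oe against 9.29 and 9.05 in WT, a difference of 0.60 ± 0.36 that did not pass (adjusted p = 0.268). All 3 genes had both CRF6oe arrays above both WT arrays, as did 30.5% of genes. Called higher were 2 of 3, against 11.7% of all genes called higher, 12.7% called lower and 24.4% in either direction. Without CRF6oe BA replicate 2 the AT1G71520 call was lost at 1.16 (adjusted p = 0.208) and that of ABR1 at 1.11 (0.226). Without WT BA replicate 2 they were lost at 1.39 (0.158) and 0.86 (0.314). With the 4 arrays compared fitted alone, the ABR1 adjusted p was 0.0617.

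Untreated, the same comparison uses arrays on which the genes were chosen and is a description. AT1G71520 was at 6.34 and 5.03 in CRF6oe against 3.81 and 3.94 in WT, and both CRF6oe arrays lay above both WT arrays. Its difference was 1.81 ± 0.51 (log2, SE, 3.50-fold), and the low WT levels in it are also part of its H2O2 response in WT. ABR1 was at 8.23 and 6.83 in CRF6oe against 6.87 and 6.33 in WT, with overlapping arrays and a difference of 0.93 ± 0.48. WRKY6 was at 9.95 and 9.49 in CRF6oe against 9.72 and 9.29 in WT, also overlapping, with a difference of 0.22 ± 0.36. The arrays of 1 of 3 genes thus separated upwards, as did those of 28.7% of all genes. Without CRF6oe untreated replicate 1 the differences of AT1G71520 and ABR1 were 1.16 and 0.23, and without replicate 2 they were 2.46 and 1.64. With H2O2, as a description, the CRF6oe minus WT differences were -1.16 for WRKY6, whose CRF6oe arrays were both lower, -0.03 for ABR1 and -0.65 for AT1G71520. The share of all genes with both CRF6oe arrays lower under H2O2 was not computed, so nothing is read from the WRKY6 separation. The WRKY6 value was -0.43 without WT H2O2 replicate 1 and -1.88 without replicate 2.

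Tissue markers also differed in CRF6oe. LHB1B2 fell by 1.53 with BA and by 0.86 with H2O2 (limma adjusted p = 8.20e-04 and 0.0278), and was at -0.50 untreated (adjusted p = 0.203). Its call with H2O2 was lost without CRF6oe H2O2 replicate 1 (-0.53, adjusted p = 0.251) or WT H2O2 replicate 2 (adjusted p = 0.184). Its level was 10.2 to 11.0 in CRF6oe with BA against 12.1 to 12.2 in WT with BA, and 11.4 to 11.7 in untreated CRF6oe against 11.9 to 12.2 in untreated WT. The 3 root markers did not move one way. PYK10 fell by 0.65 untreated and by 0.81 with BA (limma adjusted p = 0.0382 and 0.0125). Untreated, that call was lost without either CRF6oe array or WT replicate 2 (adjusted p = 0.0622 to 0.255), and with BA without replicate 2 of CRF6oe or of WT (0.0777 and 0.0912). EXPA7 was at 0.13 untreated and 0.28 with BA, and EXPA18 at 0.27 and 0.22, none passing. With H2O2 EXPA18 rose by 0.85 (limma adjusted p = 0.0492), a call lost without any 1 of the 4 arrays compared (0.119 to 0.147), after quantile normalization (0.093) or after median centring (0.0851). With H2O2 EXPA7 and PYK10 did not pass, at 0.46 and -0.53. The mean of the 3 root markers was 6.46 to 6.47 in CRF6oe with BA against 6.44 to 6.70 in WT with BA, and 6.56 to 7.002 in untreated CRF6oe against 6.81 to 6.92 in untreated WT. The part of these markers in the results was not tested.

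**Figure D3:**
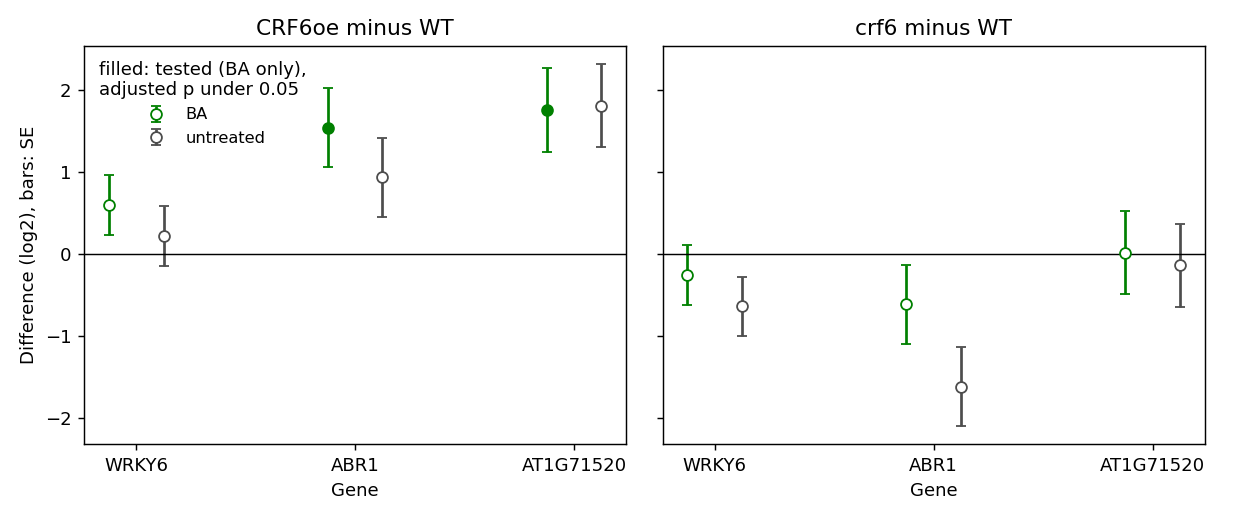
Difference from WT (log2) in CRF6oe and in crf6 for the 3 genes, with BA (tested) and untreated (described); points are differences of group means, bars are SE and filled points were tested and have an adjusted p under 0.05. The filled points are AT1G71520 and ABR1 with BA in CRF6oe.

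The relatives were also tested between CRF6oe and WT. Untreated, 4 of 8 DREB relatives of AT1G71520 rose and 0 fell, against 11.1% of all genes called higher and 25.2% in either direction. Their median was 0.89, against -0.01 over all genes. ORA47, a factor that acts on jasmonate biosynthesis genes, rose by 1.59 and AT5G21960 by 1.43 (limma adjusted p = 4.52e-04 and 0.0035). AT1G19210 rose by 0.68 and AT1G33760 by 0.73 (limma adjusted p = 0.0363 and 0.0421). The levels of these genes were low. In CRF6oe against WT they were 2.66 against 1.98 for AT1G19210 and 3.46 against 2.73 for AT1G33760. They were 4.28 against 2.85 for AT5G21960 and 4.67 against 3.07 for ORA47. Array values ran from 0.79 to 14.26, and whether such levels exceed background is not given. The group X gene AT5G61890 rose by 1.76 (limma adjusted p = 0.00629), with means of 6.78 in CRF6oe and 5.02 in WT. With BA, 4 of 8 DREB relatives rose and 0 fell, against 11.7% of all genes called higher. Their median was 1.03, against 0.02 over all genes. AT1G44830 rose by 1.84, AT5G21960 by 1.10, ORA47 by 1.05 and AT1G33760 by 1.00 (limma adjusted p = 0.00232, 0.0178, 0.00784 and 0.00776), and AT5G61890 by 2.38 (adjusted p = 7.81e-04). The WT means of these DREB relatives with BA were again low, at 2.95, 2.64, 3.15 and 2.66 in the same order. Neither WRKY42 nor WRKY47 passed in these conditions. With H2O2, 2 of 8 DREB relatives rose and 0 fell, AT5G21960 by 1.20 and ORA47 by 1.00 (limma adjusted p = 0.0103 and 0.0102), against 14.6% of all genes called higher and 29.5% in either direction. The median of the 8 was then 0.06, against 0.05 over all genes. Neither group X relative was called with H2O2, and WRKY42 fell by 0.94 (limma adjusted p = 0.0416). Untreated, the calls were lost without CRF6oe untreated replicate 1 for AT5G21960 (1.09, adjusted p = 0.0521), AT5G61890 (1.13, 0.0976), AT1G19210 (0.46, 0.269) and AT1G33760 (0.38, 0.373). Those of the last pair were also lost without either untreated WT array (adjusted p = 0.0515 to 0.237) or after median centring (0.072 and 0.0781), and that of AT5G61890 without WT untreated replicate 2 (0.060). With BA, those of AT5G21960, ORA47 and AT1G33760 were lost without WT BA replicate 2 (0.80, 0.99 and 0.76, adjusted p = 0.178, 0.0573 and 0.101), that of ORA47 also without CRF6oe BA replicate 2 (0.69, 0.114), and that of AT5G21960 without either CRF6oe BA array (adjusted p = 0.0539 and 0.0927). With H2O2, those of AT5G21960 and ORA47 were lost without CRF6oe H2O2 replicate 1 (adjusted p = 0.0524 and 0.0655) or WT H2O2 replicate 2 (0.104 and 0.124), and that of ORA47 with the 4 arrays fitted alone (0.0539). That of WRKY42 was lost without CRF6oe H2O2 replicate 1 (-0.61, 0.294) or either WT H2O2 array (0.108 and 0.129), and with the 4 arrays fitted alone (0.0621).

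**Figure D4:**
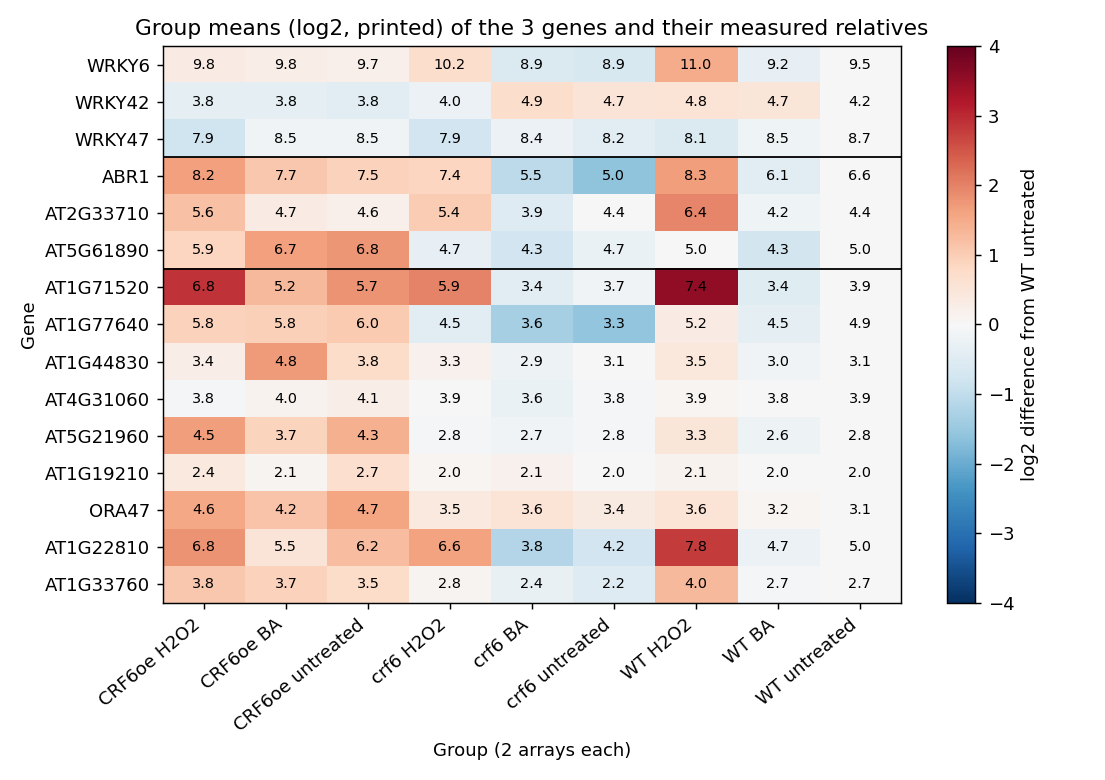
Group means of the 3 genes and their measured WRKY group IIb, ERF group X and DREB relatives in all 9 groups; printed numbers are log2 levels and the colour is the log2 difference from untreated WT. Lines divide the 3 families, and AT1G71520 has its darkest red in WT with H2O2.

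The 2 arrays of a group differed in the same direction for all 3 genes in 5 of 9 groups. In WT with H2O2, replicate 1 exceeded replicate 2 by 1.45 for WRKY6, 0.78 for ABR1 and 1.20 for AT1G71520, gaps as wide as which were seen in 0.888%, 8.96% and 2.01% of genes. In untreated CRF6oe the gaps were 0.46, 1.40 and 1.30, matched or exceeded in 22%, 0.586% and 0.81% of genes. Replicate 1 was higher for 49.3% of all genes in WT with H2O2 and for 48.7% in untreated CRF6oe.

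Over the 9 group means the 3 genes correlated with each other at r = 0.86 (WRKY6 and ABR1), 0.90 (WRKY6 and AT1G71520) and 0.90 (ABR1 and AT1G71520). These points share arrays and the H2O2 treatment the genes were chosen on, so no p is given. Among 6364 genes whose group means span at least 1 on the log2 scale, those most like WRKY6 were AT1G11050 (r = 0.984), AT1G74360 (0.980), the U-box ubiquitin ligase gene PUB23 (0.980), AT1G55450 (0.974) and AT5G05300 (0.974). Those most like ABR1 were AT1G19020 (0.982), STZ (0.977), AT4G34150 (0.973), AT2G23321 (0.969) and AT4G30390 (0.969). Those most like AT1G71520 were AT1G76970 (0.986), AT1G09500 (0.984), AT5G14730 (0.983), AT2G32030 (0.981) and AT4G15975 (0.980). An r over 0.9 was reached with WRKY6 by 1.35% of these candidates, with ABR1 by 1.78% and with AT1G71520 by 1.89%. By Spearman correlation the 5 nearest genes held 2 of the same names for WRKY6, 1 for ABR1 and 0 for AT1G71520.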

How the data were processed

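RNA of whole seedlings was hybridised to 18 one-colour arrays with biotin-labelled cRNA, per the labels' protocols. The authors deposited 1 value per feature and array. These deposited values were read as log2 from their range. Background correction, normalization and whether the arrays were processed together: not given in the sources used here. Of 38408 features, 16722 were paired with 1 gene and tested, and 16714 of these matched the RefSeq table of assembly TAIR10.1, used for names only. The brightest feature stood for a gene. Values were used as deposited. Group means were fitted to all 18 arrays with limma 3.58.1 in R 4.3.3 (9 residual and 5.63 prior degrees of freedom), two-sided, with Benjamini-Hochberg adjustment over the 16722 features and calls at an adjusted p under 0.05. The fit was tested on simulated data. Listed relatives in the nearest families and reported WRKY6 targets were all eligible to be named, from other lists up to 4 called genes a contrast, and the 5 genes most alike by Pearson correlation. The genes and lists were chosen with earlier results of these data known. For the 3 genes, comparisons that share untreated arrays with the contrast they were chosen on had been planned as tests and are given with no p.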

Additional observations from a re-analysis of the deposited data

How the results depend on the processing

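Of 6 tested results for WRKY6, ABR1 and AT1G71520, 4 kept their side of the threshold in every setting run and 2 did not; 3 of the 4, uncalled throughout, had a sign that differed in some setting. Of 42 described results, 25 stayed within 1 SD and 17 did not. Outside single-array omissions, the only changed call or move beyond 1 SD was ABR1 in CRF6oe against WT with BA. It was at 1.54 (adjusted p = 0.0617) with only the 4 arrays compared. Small WRKY6 differences turned sign in such settings within 1 SD. Untreated CRF6oe minus WT reached -0.03 against 0.22. BA minus untreated reached -0.03 against 0.05 in crf6 and -0.04 against 0.05 in CRF6oe. With each array left out in turn, CRF6oe minus WT with BA ran from 0.86 to 2.22 for ABR1 and 1.16 to 2.35 for AT1G71520, and untreated from 0.23 to 1.64 and 1.16 to 2.46. H2O2 minus untreated in CRF6oe ran from 0.0046 to 1.41 for ABR1 and 0.43 to 1.73 for AT1G71520, and in WT from 0.77 to 2.22 for WRKY6. The H2O2 response of CRF6oe minus that of WT ran from -2.10 to -0.65 for WRKY6, -1.66 to -0.26 for ABR1 and -3.11 to -1.81 for AT1G71520, and that of crf6 minus WT from -0.90 to 0.55 for WRKY6, the last value a reversal without WT H2O2 replicate 1. BA minus untreated in CRF6oe ran from -0.54 to 0.86 for ABR1 and -1.18 to 0.13 for AT1G71520, and in WT from -1.13 to 0.24 for ABR1. The BA response of CRF6oe minus that of WT ran from -0.096 to 1.30 for ABR1 and -0.70 to 0.60 for AT1G71520, and that of crf6 minus WT from 0.32 to 1.69 for ABR1. Of these, ABR1 was reversed without CRF6oe untreated replicate 2 (-0.54 in CRF6oe, -0.096 for the response) and without WT BA replicate 2 (0.24 in WT, -0.079 for the response), and AT1G71520 without CRF6oe untreated replicate 1 (0.13 and 0.60). With H2O2, WRKY6 ran from -1.53 to -0.085 in crf6 minus WT and from -1.88 to -0.43 in CRF6oe minus WT. The cause was not tested.

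Same-numbered deviations correlated above 0.1 in 7 of 36 group pairs, among them all 3 within WT (0.22 to 0.33). A replicate block over all arrays, and 1 within each genotype chosen after seeing the data, changed 0 results of these 3 genes. Genes called for H2O2 were 542 and 570 with these blocks in WT against 475 without, 348 and 393 in crf6 against 323, and 452 and 494 in CRF6oe against 433; for BA they were 38 and 35 against 27, 49 and 53 against 39, and 32 and 42 against 35. Over all arrays the block lost the calls of KIN2 with BA and EXPA18 with H2O2 in CRF6oe against WT (adjusted p = 0.0511 and 0.0548), and within genotypes that of AT1G22810 in WT (0.0562). Counts of genes called moved by over 1.5 times for 14 contrasts. With only the arrays compared or with all features tested, H2O2 calls in WT were 155 and 312, in CRF6oe 30 and 185 against 433, and in crf6 203 with all features against 323; BA calls were 9 and 13 against 27 in WT, 3 and 23 against 39 in crf6, and 3 and 15 against 35 in CRF6oe. CRF6oe against WT with H2O2 gave 2213 with the arrays compared against 4880. The H2O2 response of CRF6oe minus that of WT gave 1 and 10 against 95. Averaging all features of a gene gave no other value, as each of the 3 genes has 1. The 2 arrays a group limit precision, and signal over background is not given.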

Other observations

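Of 27 listed abscisic acid and dehydration genes 4 were measured. With H2O2 in WT, 2 of 4 rose and 0 fell, against 1.5% of all genes called higher: COR15A, a chloroplast protein of cold and drought, by 2.33 ± 0.34 and KIN2, a cold- and abscisic acid-induced protein, by 1.14 ± 0.23 (log2, SE, limma adjusted p = 0.00115 and 0.0124). The KIN2 call was lost without WT H2O2 replicate 2 (0.84, adjusted p = 0.106) or WT untreated replicate 1 (0.90, adjusted p = 0.146). In CRF6oe against WT with BA, 3 of 4 fell and 0 rose, against 12.7% of all genes called lower and 24.4% in either direction: COR15A by 1.81, the dehydrin COR47 by 1.15 and KIN2 by 0.68 (limma adjusted p = 0.00129, 0.00205 and 0.0447). The KIN2 call was lost without WT BA replicate 1 (-0.44, adjusted p = 0.319), CRF6oe BA replicate 1 (adjusted p = 0.0883) or CRF6oe BA replicate 2 (adjusted p = 0.191). Of 11 listed leaf senescence genes only SAG29, a sugar transporter, was measured. It rose by 0.93 in untreated CRF6oe against untreated WT (limma adjusted p = 0.0196), a call lost without CRF6oe untreated replicate 1 (0.81, adjusted p = 0.118) or WT untreated replicate 2 (0.58, adjusted p = 0.224).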
